A study of Mus musculus with 8 samples.

Results

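The comparison described here asks how far the liver's transcriptional response to re-feeding differs between mice that lack Med23 in the liver and control mice. It is the genotype by re-feeding interaction: the change from the fasted to the re-fed state in the liver-specific Med23 knockout (LMKO), minus the same change in controls. Its members are all annotated loci that span at least 200 bases and reach 1 FPKM (mapped fragments divided by transcript length in kilobases and by the library's size) in at least 2 libraries, which left 10782 of 23699 deposited loci. The choice uses the level over all 8 libraries and not the direction of any difference. A positive value means that a transcript stood higher after feeding in LMKO liver, relative to its own fasted level, than in control liver, and a negative value means the opposite.

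All 8 animals were male mice of the strain C57/BL6, 8 weeks old, and polyadenylated RNA was sequenced from whole liver of each. The 4 groups of 2 mice were fasted controls and fasted LMKO mice, both without food for 24 h, and re-fed controls and re-fed LMKO mice, which had food again for 24 h after the same 24 h fast. LMKO denotes a knockout of Med23 confined to the liver. The Cre line and the genotype of the controls are not stated in the sources used here, and the other cell types of the liver were sequenced together with the hepatocytes. Each group rests on 2 animals, so p-values measure the spread between 2 livers per group, and every standard error below comes from a spread pooled over the 4 groups with 4 residual degrees of freedom.

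Fasting sets the liver to release glucose and ketone bodies. Glucagon, glucocorticoids and falling insulin raise the enzymes of gluconeogenesis, amino acid breakdown, fatty acid oxidation and ketogenesis, and feeding reverses this through insulin, SREBP1 and ChREBP, which raise glycolysis and fat synthesis. Mediator is the multi-subunit complex that connects DNA-bound transcription factors with RNA polymerase II, and Med23 is a subunit of its tail module that receives signals from several activators. A transcript well above 1 FPKM whose fasted and fed levels differ between genotypes by the same factor shows almost no interaction. A gap that is present in only 1 feeding state, or that turns around, does show one. At lower levels an equal factor can also give an interaction, because the scale used is log2(FPKM + 1).

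The libraries were alike in the number of loci that reached 1 FPKM, 10096 to 10403, while summed FPKM differed by group. It ran from 453652 to 468218 in the fasted livers. After re-feeding it was 511926 and 552680 in controls and 597650 and 580797 in LMKO livers. Rn45s, a ribosomal RNA locus, ran from 185 FPKM in the fasted LMKO 2 to 3448 in the re-fed control 2. The number of fragments behind these values is unknown. Within a group, log2(FPKM + 1) of the 2 livers correlated across all tested loci at values that ran from 0.977 in fasted controls to 0.987 in re-fed LMKO mice. The 2 fasted controls differed widely in some genes, among them genes of fasting. Igfbp1, an insulin-repressed binding protein of IGF1, stood at 216 and 624 FPKM in them, and Pdk4, the kinase that switches off pyruvate oxidation, at 3.81 and 37.4. The files carry 1 number for all fasted and another for all re-fed libraries, and its meaning is not given. Each number covers both genotypes, so the re-feeding responses cannot be told apart from it, while the interaction compares genotypes within each number. Long transcripts stood relatively lower in the re-fed libraries: the correlation of a library's deviation with log2 transcript length was 0.166 to 0.230 in the fasted and -0.056 to -0.263 in the re-fed libraries, with the re-fed control 1 nearest to 0. Across loci, the interaction itself correlated with log2 length at -0.137, and at -0.0541 without the re-fed control 1. Hepatocyte markers such as Apoa1 and Ttr stood among the most abundant transcripts, although Alb, the albumin gene, is listed at 0 in all 8.

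No locus passed the test of the interaction. With limma on log2(FPKM + 1) and Benjamini-Hochberg adjustment over the 10782 loci, 0 were called (0%), and the smallest adjusted p was 0.356. At an unadjusted limma p under 0.05 there were 1020 loci (9.46%), of which 345 (3.2%) had the higher response in LMKO and 675 (6.26%) the lower. The direction was uneven over all loci too, with 4513 estimates (41.9%) above 0 and 6269 (58.1%) below, and a median of -0.06 on the log2(FPKM + 1) scale. That median was 0.01 after median-ratio scaling and 0.00 after quantile normalization, so a median below 0 was not kept under either scaling. The interaction exceeded 1 in absolute size at 315 loci, 147 positive and 168 negative, beside a median standard error of 0.22.

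Re-feeding itself changed many genes in both genotypes. Averaged over genotypes, limma called 5814 loci (53.9%), of which 3551 (32.9%) rose and 2263 (21%) fell. After median-ratio scaling 3017 rose and 2884 fell, and after quantile normalization 2866 rose and 2805 fell, so the size of this excess depends on the scaling. In controls alone 2516 loci rose (23.3%) and 1169 fell (10.8%), and in LMKO alone 2558 rose (23.7%) and 1816 fell (16.8%), which made 34.2% and 40.6% of loci called in either direction. The response in controls and the response in LMKO, which share no library, correlated across the 10782 loci at 0.819, with an SD of 0.70 in each. Because loci are not independent, this value is a description. In this balanced design the averaged response carries no information on the interaction if all 4 groups have equal spread, as the fit assumes. Library weights, higher where the spread is smaller, were 0.873 and 0.765 in fasted and re-fed controls and 1.08 and 1.38 in LMKO. With that limit, the loci called for the average can be sorted by which genotype moved further. With a library left out the design is not balanced, so shares from such runs are not free of the selection even with equal spread. Of the 3551 that rose, 1923 had the larger rise in LMKO and 1628 the smaller, with median rises of 0.62 in controls and 0.65 in LMKO. This order turned without the fasted control 1, when 1549 of 3399 had the larger rise in LMKO. The share with the larger rise in LMKO, 54.2%, was 64.3% after median-ratio scaling and 58.9% after quantile normalization. Of the 2263 that fell, 1570 (69.4%) fell further in LMKO, with median responses of -0.50 in controls and -0.65 in LMKO. That share lay between 59.1% and 73.2% when each library was left out in turn, and was 60.9% after median-ratio scaling and 58.8% after quantile normalization, so the higher share among falls than among rises was not kept under either scaling.

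**Figure D1:**
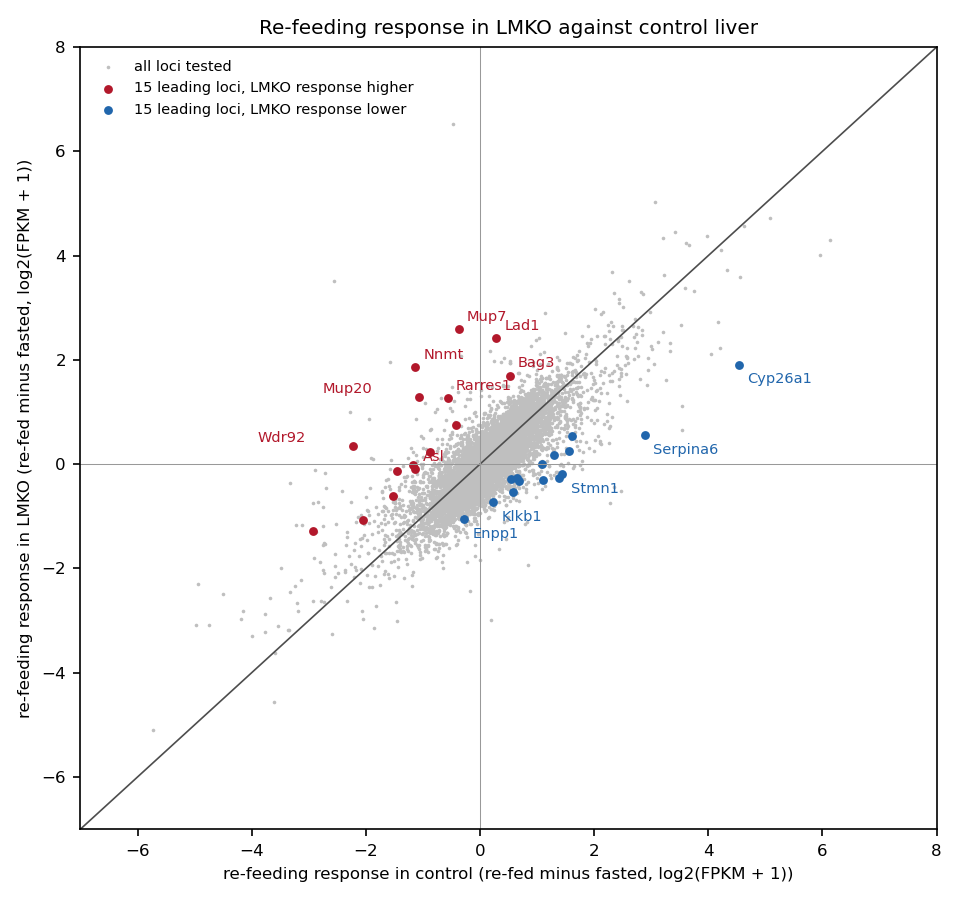
Re-feeding response of the 10782 tested loci in control liver (x axis) and LMKO liver (y axis), both as re-fed minus fasted group means of log2(FPKM + 1). Loci with a response beyond the axis limits, Igfbp1 among them, are not drawn. The diagonal marks equal responses, and the 15 loci per direction with the smallest interaction p are coloured. Most loci follow the diagonal (r = 0.819), and the leading loci sit off it on both sides.

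Fewer loci separated the genotypes within a feeding state than responded to feeding. LMKO and control differed at 25 fasted loci (0.232%), 5 higher (0.0464%) and 20 lower (0.185%) in LMKO, and at 7 re-fed loci (0.0649%), all lower in LMKO. A gene called in 1 state and not in the other is not thereby shown to differ between them; that difference is the interaction. A second, coarser reading takes the 4 pairwise responses of each genotype (each re-fed library minus each fasted library) and asks whether they overlap. All 4 LMKO responses lay above all 4 control responses at 989 loci (9.17%) and below them at 1728 (16%), and they had opposite signs in every pair at 292 (2.71%). These shares are the background for each list below.

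Med23 checks the genotype labels. It stood at 2.86 and 2.93 FPKM in controls and 2.35 and 2.18 in LMKO livers after the fast, and 2.86 and 2.33 in controls and 1.61 and 1.74 in LMKO livers after re-feeding. Both LMKO libraries lay below both controls in each feeding state, although the gaps of -0.26 fasted and -0.42 re-fed on the log2(FPKM + 1) scale did not pass limma with Benjamini-Hochberg adjustment (adjusted p = 0.445 and 0.309). Its interaction was -0.16 ± 0.17 (SE) and stayed below 0 in every alternative run. FPKM is computed over the whole locus, so reads from exons outside a deleted part count towards it. The deleted exons are not stated in the sources used here. Of 32 Mediator subunits tested, 18 had a positive and 14 a negative interaction, with a median of 0.02. The widest were Med8 at 0.42 ± 0.22, which rose on re-feeding in LMKO and gave 0.21 without the re-fed control 1, and Med16 at -0.41 ± 0.19.

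Genes of gluconeogenesis, which makes glucose in the fasted liver, had mostly positive interactions, with fasted levels that were lower in LMKO by the list's median. The list held 14 genes, all tested, and 13 of 14 had a positive interaction, beside 41.9% of all loci. The median was 0.42, beside -0.06 over all loci, and with each library left out it ran from 0.28 without the re-fed control 2 to 0.54 without the re-fed control 1. In controls 7 of the 14 fell and 2 rose; in LMKO 3 fell and 3 rose. No single member passed the interaction test. The groups differed mainly before feeding: the median LMKO-minus-control difference of the list was -0.52 fasted and 0.00 re-fed.

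Pck1 encodes phosphoenolpyruvate carboxykinase, which commits oxaloacetate to glucose. It read 2244 and 2128 FPKM in controls before and 352 and 396 after re-feeding, and 824 and 855 before and 206 and 225 after it in LMKO livers. The fasted LMKO level was already below every fasted control, the re-fed values of both genotypes lay lower still, and no groups overlapped. The responses of -2.54 in controls and -1.96 in LMKO each passed limma, as did the fasted genotype gap of -1.38, while the interaction of 0.59 ± 0.18 did not (limma adjusted p = 0.494); after quantile normalization it was 0.24. Ppargc1a, the coactivator PGC-1alpha that fasting induces, showed the same arrangement at a low level, with 6.66 and 6.64 FPKM fasted and 1.79 and 1.84 re-fed in controls, against 3.14 and 3.402 fasted and 1.26 and 1.499 re-fed in LMKO. It fell by 1.44 in controls and by 0.84 in LMKO, and its interaction was 0.60 ± 0.16. G6pc, the glucose-6-phosphatase that releases free glucose, behaved less evenly. It measured 301 and 347 FPKM fasted and 111 and 82.7 re-fed in controls, against 227 and 220.2 fasted and 194 and 53.4 re-fed in LMKO. The 2 re-fed LMKO livers lay on either side of both re-fed controls, the fall of 1.74 passed in controls, and the interaction of 0.61 ± 0.72 became -0.30 without the re-fed LMKO 1 and 1.53 without the re-fed LMKO 2.

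The locus with the smallest interaction p lies beside Pck1. 1300015D01Rik (chr2:172950250-172958705, mm9), listed by RefSeq under the later name Ctcflos as a long non-coding RNA, ends 19868 bases before the Pck1 locus (chr2:172978574-172984754). It read 18.1 and 18.9 FPKM in controls before and 1.72 and 1.41 after re-feeding, and 4.12 and 3.45 before and 0.832 and 1.11 after it in LMKO livers. It fell by 2.93 in controls and by 1.28 in LMKO, from a fasted LMKO level that was lower than in controls (both falls and the fasted gap passed limma). The interaction was 1.65 ± 0.19, with an unadjusted limma p of 4.64e-05 and an adjusted p of 0.356. Over the 21 alternative analyses the estimate stayed between 1.55 and 1.90, with an adjusted p from 0.0819 to 0.664. On its other side, 5223 bases away, lies Ctcfl, which was looked up after the values were seen. It read 4.28 and 3.64 FPKM fasted and 0.583 and 0.467 re-fed in controls, against 1.18 and 0.739 fasted and 0.165 and 0.336 re-fed in LMKO, with an interaction of 1.06 ± 0.22. The 3 neighbouring loci thus shared 1 pattern, a lower fasted level in LMKO and a fall in both genotypes.

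Enzymes that feed amino acid carbon and nitrogen into this pathway also had mostly positive interactions. Tat, Sds, Got1 and Gpt are on both lists, so the counts are not separate. Of 33 genes of amino acid breakdown tested, 24 had a positive interaction, with a median of 0.26 that ran from 0.13 without the fasted LMKO 1 to 0.27 without the re-fed control 2. After quantile normalization it was 0.09, with 19 of 33 positive. In 7 the LMKO responses lay wholly above those of controls. Got1, the cytosolic aspartate aminotransferase (chr19:43574243-43599095, mm9), measured 445 and 523 FPKM in controls before and 157 and 194 after re-feeding, and 228 and 227 before and 232 and 187 after it in LMKO livers. Fasted controls stood above all other livers, and the re-fed groups overlapped. It fell by 1.46 in controls, the LMKO response was -0.13 and did not pass, and the interaction was 1.33 ± 0.24 (limma adjusted p = 0.452). Tat, tyrosine aminotransferase and a classical glucocorticoid target, read 1094 and 1966 FPKM fasted and 804 and 899 re-fed in controls, against 452 and 393 fasted and 779.8 and 913 re-fed in LMKO. The fasted LMKO livers stood below all others. Tat rose in LMKO by 1.0, the control response was -0.79 and did not pass, and the interaction was 1.79 ± 0.38. It passed in the analysis without the fasted control 1, at 2.21 (limma adjusted p = 0.0499), and in none of the other 20, over which its adjusted p reached 0.684.

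Hpd, which degrades tyrosine in the step after Tat, read 2573 and 2944 FPKM fasted and 1533 and 1595 re-fed in controls, against 1752 and 2203 fasted and 1950.3 and 2044 re-fed in LMKO. It fell by 0.82 in controls, with an LMKO response of 0.02 and an interaction of 0.84 ± 0.22. Bhmt, which remethylates homocysteine with betaine, measured 5576 and 2484 FPKM in controls and 845 and 1078 in LMKO livers after the fast, and 2422 and 1518 in controls and 1774 and 2586 in LMKO livers after re-feeding. Its fasted controls differed widely from each other, and neither response passed; the interaction was 2.12 ± 0.58. Hsd17b10, a mitochondrial dehydrogenase of isoleucine breakdown, read 348 and 426 FPKM fasted and 178 and 163 re-fed in controls, against 190.1 and 199 fasted and 179 and 203 re-fed in LMKO. Fasted controls alone stood high in Hsd17b10, which is not on the list and is named as a leading locus. It fell by 1.17 in controls, with an LMKO response of -0.03 and an interaction of 1.15 ± 0.21.

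The urea cycle disposes of the nitrogen that amino acid breakdown sets free. Asl, argininosuccinate lyase (chr5:130487373-130500201, mm9), had the smallest p of that list. It read 833 and 924 FPKM in controls and 408 and 398 in LMKO livers after the fast, and 406 and 387 in controls and 364 and 388 in LMKO livers after re-feeding. Fasted controls stood far above the other 3 groups, which lay close together. Asl fell by 1.15 in controls, its LMKO response of -0.10 did not pass, the fasted gap of -1.12 passed, and the interaction was 1.04 ± 0.17 (limma adjusted p = 0.452). Slc25a15, the mitochondrial ornithine carrier, read 119.9 and 151 FPKM fasted and 139 and 154 re-fed in controls, against 86.9 and 94.4 fasted and 155 and 162 re-fed in LMKO; it rose in LMKO by 0.80, with an interaction of 0.68 ± 0.21. Arg1, arginase, gave 0.41 ± 0.19 and 0.07 after quantile normalization. Nags, which makes the activator of the first urea cycle enzyme, gave -0.33 ± 0.22, which was -0.13 without the fasted LMKO 1 and -0.53 without the fasted LMKO 2. Over the 8 genes, 5 were positive and 3 negative, with a median of 0.28 that became -0.03 after quantile normalization.

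Fat synthesis gave mostly negative interactions. Of 14 genes of fatty acid synthesis, 10 rose in controls and 8 in LMKO, and 12 of 14 had a negative interaction, beside 58.1% of all loci. The median was -0.17, and with each library left out it ran from -0.59 without the re-fed control 2 to -0.07 without the re-fed control 1. It was -0.09 after median-ratio scaling and -0.29 after quantile normalization. Mid1ip1, an activator of acetyl-CoA carboxylase, read 7.53 and 3.901 FPKM fasted and 65.01 and 62.8 re-fed in controls, against 8.55 and 5.13 fasted and 34.7 and 39.7 re-fed in LMKO. The fasted groups overlapped, while the re-fed controls lay above both re-fed LMKO livers; the rises of 3.33 and 2.32 both passed, and the interaction was -1.01 ± 0.41, or -0.61 without the fasted control 2. Acss2, which turns acetate into acetyl-CoA, read 33.6 and 18.1 FPKM fasted and 167 and 164 re-fed in controls, against 18.3 and 16.7 fasted and 70.2 and 77.6 re-fed in LMKO, with rises of 2.69 and 2.02 and an interaction of -0.67 ± 0.36, which was -1.10 without the fasted control 1 and -0.25 without the fasted control 2. Scd1, the desaturase that makes oleate, had the largest absolute estimate of the list and a large spread. It read 12.4 and 48.3 FPKM in controls and 27.7 and 189 in LMKO livers after the fast, and 241 and 368 in controls and 353 and 37.5 in LMKO livers after re-feeding; both LMKO groups spanned a wide range, and the interaction of -2.88 ± 1.74, which was -4.48 without the re-fed LMKO 1 and -1.28 without the re-fed LMKO 2 and -1.51 without the fasted LMKO 2, did not pass (limma adjusted p = 0.618). Fasn, named after its values were seen as the central enzyme of the pathway, rose by 2.68 in controls and 2.65 in LMKO, with an interaction of -0.03 ± 0.53.

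The regulators of fat synthesis had 9 of 13 interactions below 0, with a median of -0.17 that ran from -0.32 without the re-fed LMKO 2 to -0.01 without the fasted control 2 and was -0.09 after median-ratio scaling. Srebf1, the insulin-driven transcription factor SREBP1, read 12.5 and 3.68 FPKM in controls before and 154 and 111 after re-feeding, and 16.6 and 27.5 before and 108 and 85.8 after it in LMKO livers. The LMKO livers stood above both controls when fasted and below both when re-fed. Both rises, 4.05 and 2.12, passed, and the interaction was -1.93 ± 0.68 (limma adjusted p = 0.501). It was -1.17 without the fasted control 2. Mlxipl, the carbohydrate-responsive factor ChREBP, read 34.2 and 21.1 FPKM fasted and 66.5 and 91.996 re-fed in controls, against 64.3 and 63.99 fasted and 92.8 and 67.7 re-fed in LMKO. Fasted controls alone stood low; it rose by 1.51 in controls, the LMKO response of 0.30 did not pass, and the interaction was -1.21 ± 0.38. Insig2, which holds SREBPs in the endoplasmic reticulum and is high in fasting, had the opposite sign. It read 224 and 355 FPKM fasted and 34.2 and 79.3 re-fed in controls, against 211 and 119.8 fasted and 144 and 85.9 re-fed in LMKO, fell by 2.41 in controls, and gave an interaction of 1.90 ± 0.67. Gm6484, the older name of the feeding-induced hormone gene Angptl8, read 2.81 and 2.099 FPKM fasted and 203 and 223 re-fed in controls, against 32.1 and 13.7 fasted and 359 and 353 re-fed in LMKO. The LMKO livers stood above both controls in each feeding state. It rose by 5.96 in controls and 4.02 in LMKO, the fasted gap passed limma, and the interaction was -1.94 ± 0.48.

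Genes of triglyceride synthesis and lipid droplets, several of which fasting induces, had mostly positive interactions. Of 20 listed genes 17 were tested, and 13 of 17 had a positive interaction, with a median of 0.34 that ran from 0.18 without the re-fed control 2 to 0.45 without the fasted LMKO 1 and was 0.22 after quantile normalization. In controls 9 fell and 0 rose, and in LMKO 6 fell and 1 rose. The fasted controls differed widely in several of them. Plin2, the main coat protein of hepatocyte lipid droplets, read 279 and 692 FPKM in controls before and 114 and 117 after re-feeding, and 287 and 268 before and 208 and 197 after it in LMKO livers. That control stood far above the other 3 fasted livers, while both re-fed LMKO livers lay above both re-fed controls. The interaction was 1.47 ± 0.51, and without the fasted control 1 it was 2.12 and passed (limma adjusted p = 0.0422, against 0.0422 to 0.744 over all alternatives), and without the fasted control 2 it was 0.82 and did not. Cidec, which enlarges droplets, read 24.1 and 124 FPKM fasted and 0.992 and 0.679 re-fed in controls, against 19.3 and 9.94 fasted and 0.901 and 3.8003 re-fed in LMKO. It fell in both genotypes, and its interaction of 2.63 ± 1.06 became 1.48 without the fasted control 2. Pnpla2, the triglyceride lipase ATGL, fell by 2.34 in controls and 1.29 in LMKO, with an interaction of 1.04 ± 0.43 that was 0.56 without the fasted control 2. Hilpda, an inhibitor of that lipase (chr6:29222488-29225449, mm9), read 4.43 and 6.02 FPKM fasted and 2.18 and 2.57 re-fed in controls, against 2.24 and 2.44 fasted and 3.16 and 2.72 re-fed in LMKO. Every LMKO pair was higher re-fed than fasted and every control pair lower; the fall of 0.87 in controls passed, the LMKO response of 0.24 did not, and the interaction was 1.11 ± 0.22.

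Ketogenesis and the carnitine shuttle gave 8 of 10 positive interactions, a median of 0.44 that ran from 0.22 without the re-fed control 2 to 0.61 without the re-fed LMKO 1 and was 0.23 after quantile normalization, and 6 falls in controls against 4 in LMKO. Slc25a20, the carnitine-acylcarnitine translocase, fell by 1.04 in controls, had an LMKO response of -0.32 that did not pass, and an interaction of 0.73 ± 0.24. Among 28 genes of fatty acid oxidation and other PPARalpha targets, 21 fell in controls and 15 in LMKO, and the median interaction was 0.07, which ran from -0.11 without the fasted control 2 to 0.38 without the fasted control 1 and so has no settled sign. Pdk4 gave 2.54 ± 1.21, which was 4.04 without the fasted control 1 and 1.04 without the fasted control 2. Cyp4a10 gave 1.11 ± 0.44 and Cyp4a14 0.92 ± 0.40, and without the fasted control 2 these were 0.69 and 0.48. The split of reads among similar genes of the Cyp4a family is uncertain. Cholesterol synthesis rose in both genotypes, 15 of 22 genes in controls and 16 in LMKO. Its median interaction of 0.28 turned to -0.42 without the fasted control 1, so no direction is given for it.

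**Figure D2:**
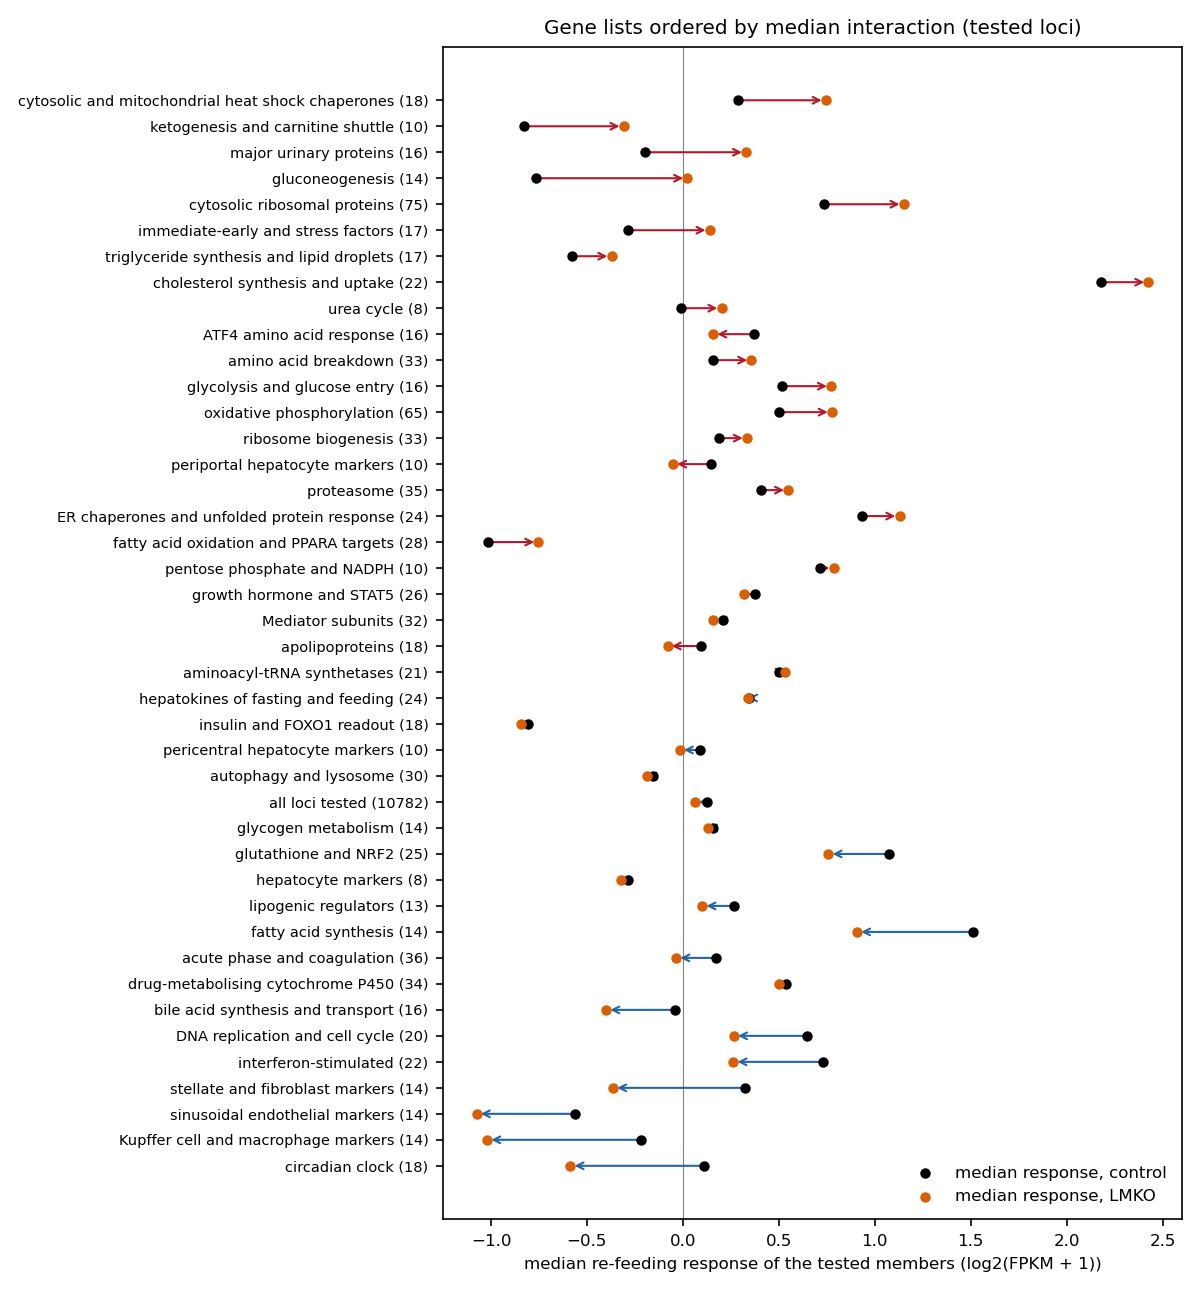
Median re-feeding response of the tested members of each gene list with at least 8 tested members, in control (black) and LMKO (orange) liver on the log2(FPKM + 1) scale, with the number tested in brackets and lists ordered by their median interaction. Arrows are red where the median interaction is positive and blue where it is negative, which for ATF4, apolipoprotein, growth hormone and STAT5, Mediator and periportal genes differs in sign from the difference of the medians; the heat shock chaperones stand at the top and the circadian genes at the bottom.

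Heat shock chaperones had larger re-feeding responses in LMKO than in control liver by nearly every estimate. These proteins fold client proteins in the cytosol and mitochondria, and many of their genes are driven by HSF1, which binds inverted repeats of GAA. Of 19 listed genes 18 were tested, and 17 of 18 had a positive interaction, with a median of 0.46 that ran from 0.37 without the re-fed LMKO 1 to 0.59 without the fasted control 1. In 8 the LMKO responses lay wholly above those of controls and in 0 below, beside 9.17% and 16% of all loci. In controls 5 rose and 1 fell; in LMKO 14 rose and 0 fell.

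RefSeq promoters (GRCm38.p6, a later build than the mm9 of the files) were matched for 15 of the 19 listed genes, as the 250 bases before each start. The pattern GAANNTTC was found in 7 of the 15 genes, beside 7.73% of all 27025 genes in the table and 6.69% of its 32851 windows of that length. TTCNNGAA was found in 3 genes (8.11% of all genes, 7.17% of windows), and the first pattern extended by NNGAA, so that both overlap, in 2 (0.514% of all genes, 0.466% of windows). Some genes have more than 1 window, and a gene counts if any of them matches. The first and second patterns read the same on both strands, and the extended one was searched on both. Hspd1 and Hspe1 lie head to head and their windows overlap, so they share these letters. Promoters of 3 members are shown because they hold different numbers of matches in genes whose levels are given next. Each runs 5′ to 3′ towards its gene, all on the + strand, with matches in capitals: Hspe1 at chr1:55087898-55088147, Hspb1 at chr5:135887669-135887918 and Bag3 at chr7:128523333-128523582. A match is a run of letters, and binding was not measured.
Hspe1: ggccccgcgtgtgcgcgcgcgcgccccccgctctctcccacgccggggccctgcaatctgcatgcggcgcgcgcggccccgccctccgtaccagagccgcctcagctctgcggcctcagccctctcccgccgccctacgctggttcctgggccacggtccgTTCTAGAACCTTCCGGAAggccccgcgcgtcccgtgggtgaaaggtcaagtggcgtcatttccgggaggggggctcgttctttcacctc
Hspb1: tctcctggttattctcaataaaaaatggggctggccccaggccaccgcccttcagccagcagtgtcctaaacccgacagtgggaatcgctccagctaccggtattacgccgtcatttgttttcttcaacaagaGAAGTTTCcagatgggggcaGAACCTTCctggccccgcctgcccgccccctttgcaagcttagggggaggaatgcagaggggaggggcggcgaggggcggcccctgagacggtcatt
Bag3: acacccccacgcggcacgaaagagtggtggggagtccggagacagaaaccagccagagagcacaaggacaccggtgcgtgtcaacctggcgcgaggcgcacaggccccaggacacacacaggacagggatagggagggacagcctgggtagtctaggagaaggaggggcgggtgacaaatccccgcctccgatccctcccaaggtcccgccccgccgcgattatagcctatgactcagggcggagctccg

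Bag3, a co-chaperone of HSP70 (chr7:135667097-135690493, mm9), has no match in the window shown and gave the smallest p of the list. It read 12.02 and 10.6 FPKM in controls before and 16.2 and 17.1 after re-feeding, and 8.22 and 7.46 before and 28.3 and 26.998 after it in LMKO livers. The fasted LMKO livers lay below both fasted controls and the re-fed LMKO livers above both re-fed controls. It rose by 0.52 in controls and 1.70 in LMKO, with an interaction of 1.18 ± 0.17 (limma adjusted p = 0.356). Hspa8, the constitutive HSC70, moved in opposite directions in the 2 genotypes. It read 998 and 1249 FPKM fasted and 841 and 612 re-fed in controls, against 880.0 and 844 fasted and 1427 and 1291 re-fed in LMKO, fell by 0.64 in controls and rose by 0.65 in LMKO, and its interaction was 1.29 ± 0.27. Hspe1, the mitochondrial co-chaperonin HSP10, read 147 and 164 FPKM fasted and 221 and 252 re-fed in controls, against 139.6 and 170.1 fasted and 358 and 335 re-fed in LMKO. The fasted groups overlapped; it rose by 0.60 and 1.16, with an interaction of 0.56 ± 0.21. Hspb1, the small chaperone HSP27, read 6.03 and 17.2 FPKM fasted and 5.83 and 9.88 re-fed in controls, against 3.42 and 5.04 fasted and 14.8 and 10.5 re-fed in LMKO. The fasted control 2 stood above every other fasted liver, the LMKO rise of 1.38 passed, and the interaction of 1.78 ± 0.63 was 1.09 without that control.

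Other stress genes were mixed. Jun, part of the AP-1 factor, read 3.43 and 8.16 FPKM fasted and 2.81 and 2.74 re-fed in controls, against 2.64 and 3.51 fasted and 8.05 and 6.95 re-fed in LMKO. It rose in LMKO by 1.07, the re-fed LMKO livers lay above both re-fed controls, and the interaction was 1.82 ± 0.44; it passed without the fasted control 1, at 2.34 (limma adjusted p = 0.0422, against 0.0422 to 0.669 over all alternatives), and in no other analysis. Atf3 gave 0.77 ± 0.22 at 1.804 and 2.703 FPKM in re-fed LMKO and 0.821 and 0.832 in re-fed controls, and rose in both genotypes. Gadd45a, a growth arrest gene, had the opposite sign, -1.66 ± 0.53 and -1.06 without the re-fed LMKO 1, with a rise of 2.10 in controls. Over 17 immediate-early and stress factors 12 interactions were positive, with a median of 0.35 that ran from 0.09 without the fasted control 2 to 0.50 without the re-fed control 2 and was 0.20 among members that reached 5 FPKM. Among 16 targets of ATF4, the factor of the amino acid response, 11 were positive, with a median of 0.27 that ran from 0.08 without the re-fed control 1 to 0.32 without the re-fed LMKO 1. With no filter on low values that median was 0.01, with 11 of 22 positive. Cebpb read 30.9 and 42.9 FPKM fasted and 13.5 and 15.4 re-fed in controls, against 13.3 and 15.02 fasted and 13.97 and 10.1 re-fed in LMKO; it fell by 1.28 in controls and gave 1.05 ± 0.29. Ddit4, which restrains mTOR, differed widely between the fasted controls. It read 4.02 and 46.3 FPKM fasted and 4.57 and 3.74 re-fed in controls, against 1.08 and 1.06 fasted and 5.25 and 9.23 re-fed in LMKO, and its interaction of 3.53 ± 1.25 was 5.15 without the fasted control 1 (limma adjusted p = 0.0265, against 0.0265 to 0.738 over all alternatives) and 1.92 without the fasted control 2. Of 24 chaperones and sensors of the endoplasmic reticulum, 18 rose in each genotype. Creld2 read 14.7 and 15.4 FPKM fasted and 36.8 and 30.9 re-fed in controls, against 13.6 and 20.3 fasted and 92.5 and 64.1 re-fed in LMKO, with rises of 1.12 and 2.15 and an interaction of 1.03 ± 0.33, and Syvn1, a ligase that clears misfolded proteins, gave 0.83 ± 0.23. The median of that list was 0.09 and lost its sign after quantile normalization and without the fasted control 1 or the re-fed LMKO 1, where it was -0.04.

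**Figure D3:**
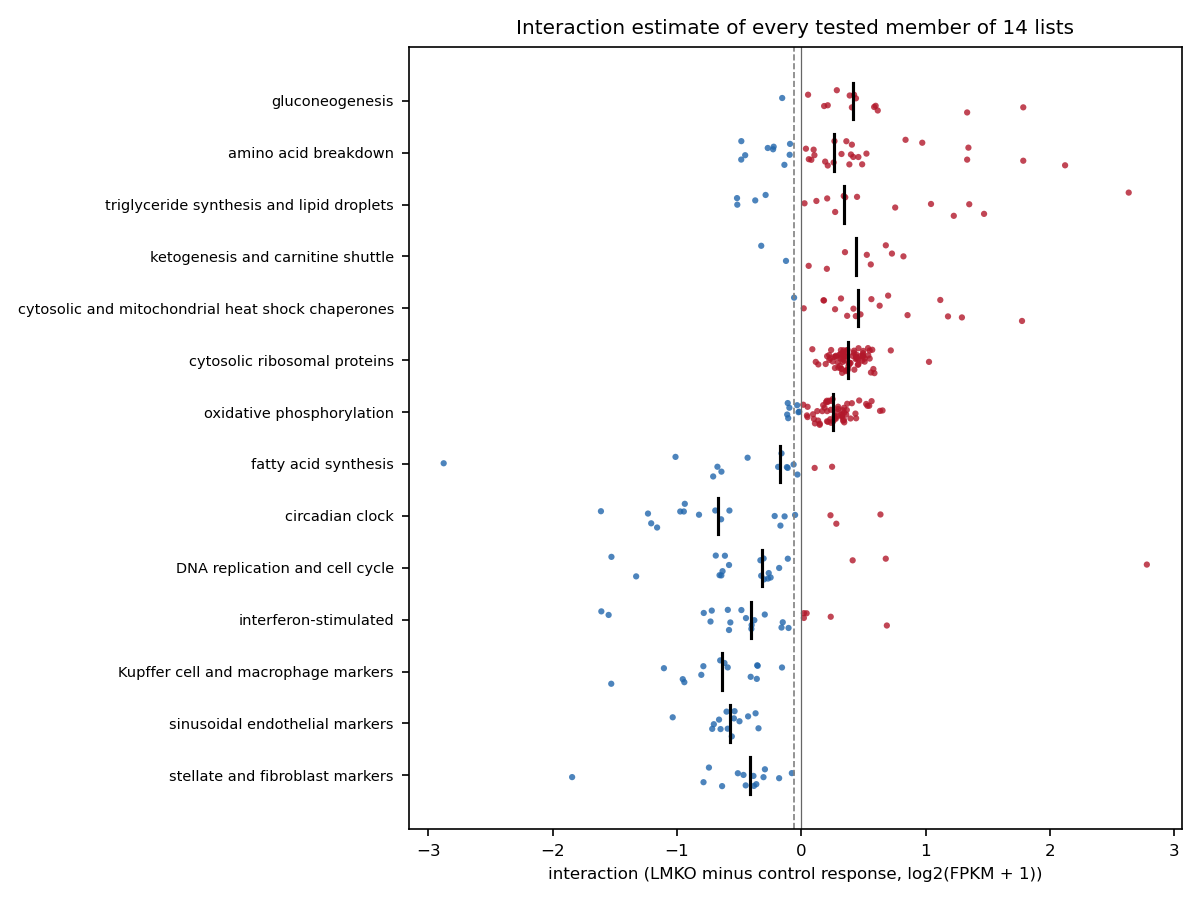
Interaction estimate (LMKO response minus control response, log2(FPKM + 1)) of every tested member of 14 lists, with the black bar at the list median and the dashed line at the median of all loci (-0.06). All 75 ribosomal protein genes lie above 0, and all members of the Kupffer cell, sinusoidal endothelial and stellate lists lie below it.

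Ribosomal protein genes rose on re-feeding in both genotypes, and every estimate of the response was larger in LMKO. Of 75 tested, 69 rose in controls and 74 in LMKO, and 75 of 75 interactions were positive, between 0.09 and 1.03 with a median of 0.37 that ran from 0.28 without the fasted control 1 to 0.46 without the fasted control 2. In 58 the LMKO responses lay wholly above those of controls. Many of them have near-identical pseudogenes, so the split of reads is uncertain. Rps12 read 357 and 349.5 FPKM fasted and 782 and 716 re-fed in controls, against 373 and 361 fasted and 1185 and 1141 re-fed in LMKO, and its rises of 1.08 and 1.66 gave an interaction of 0.58 ± 0.17. Rpl10a read 215 and 205 FPKM fasted and 299.9 and 272 re-fed in controls, against 211 and 212 fasted and 404 and 415 re-fed in LMKO, with 0.51 ± 0.17, or 0.32 after quantile normalization. In both genes the fasted livers of the 2 genotypes lay close together and the re-fed LMKO livers stood above the re-fed controls. Among subunits of oxidative phosphorylation, 47 of 65 rose in controls and 59 in LMKO, 58 of 65 interactions were positive, and the median of 0.25 ran from 0.14 without the re-fed control 1 to 0.38 without the re-fed control 2. Quantile normalization lowered the medians to 0.10 for this list, with 49 of 65 positive, and to 0.21 for ribosomal proteins, with 73 of 75 positive. Ndufb7, a complex I subunit, read 105 and 109.8 FPKM fasted and 143 and 184 re-fed in controls, against 116 and 103 fasted and 260.4 and 253 re-fed in LMKO, with 0.63 ± 0.21. Both lists hold short transcripts, with median lengths of 632 and 608 bases beside 1326 over all loci, and the interaction correlated with length as given above. With the length trend of each library removed, the medians were 0.30 for ribosomal proteins, with 74 of 75 positive, and 0.17 for oxidative phosphorylation, with 55 of 65 positive. The part of length in the estimates was not otherwise tested. Of 33 ribosome biogenesis factors, 26 were positive, with a median of 0.17 that ran from 0.05 without the re-fed control 2 to 0.27 without the re-fed control 1. Nhp2, a core protein of box H/ACA particles, read 12.1 and 14.6 FPKM fasted and 25.6 and 22.8 re-fed in controls, against 13.3 and 12.1 fasted and 40.4 and 47.9 re-fed in LMKO and gave 0.90 ± 0.21. Of 35 proteasome genes 28 were positive, with a median of 0.11 that turned to -0.05 without the fasted LMKO 2.

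Markers of Kupffer cells, sinusoidal endothelium and stellate cells had lower re-feeding responses in LMKO than in control liver by every estimate of the main fit. All 14 tested markers of Kupffer cells and macrophages, all 14 of sinusoidal endothelium and all 14 of stellate cells and fibroblasts had a negative interaction, with medians of -0.64, -0.58 and -0.42; with each library left out these ran over -0.87 to -0.48, -0.77 to -0.34 and -0.60 to -0.25. The endothelial median came nearest to 0 without the re-fed LMKO 2, and the stellate median without the re-fed control 2. After quantile normalization the medians were -0.54, -0.49 and -0.34, and 13 of 14 stellate markers stayed below 0. Only 10 Kupffer, 12 endothelial and 4 stellate markers reached 5 FPKM in at least 2 libraries, so most stellate values are low. Of the Kupffer markers 2 fell in controls and 9 in LMKO, of the endothelial markers 7 and 11, and of the stellate markers 2 and 5. The LMKO responses lay wholly below those of controls in 7, 8 and 5 of the 14, beside 16% of all loci. In a bulk sample, fewer cells of a type and less RNA per cell cannot be told apart.

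Kdr, the VEGF receptor of endothelium, gave the lowest p of the endothelial list. It read 9.47 and 8.87 FPKM in controls and 15.6 and 11.7 in LMKO livers after the fast, and 5.32 and 4.58 in controls and 3.74 and 2.62 in LMKO livers after re-feeding. Fasted LMKO livers lay above the fasted controls and re-fed LMKO livers below the re-fed controls; it fell by 0.78 and 1.81, with an interaction of -1.03 ± 0.26. Stab2, a scavenger receptor of sinusoids, read 9.3001 and 10.3 FPKM fasted and 4.79 and 4.62 re-fed in controls, against 13.4 and 9.97 fasted and 3.61 and 2.84 re-fed in LMKO and gave -0.66 ± 0.23. Cd5l, a protein secreted by Kupffer cells, read 21.995 and 16.4 FPKM in controls and 25.3 and 35.6 in LMKO livers after the fast, and 22.6 and 29.6 in controls and 10.6 and 16.9 in LMKO livers after re-feeding. The order of the genotypes turned with feeding: LMKO was above control fasted and below it re-fed. It fell in LMKO by 1.10, with an interaction of -1.53 ± 0.38. Csf1r, the receptor that macrophages need to survive, fell by 0.74 and 1.54, with -0.80 ± 0.31, or -0.47 without the re-fed control 2. Lrat, which stores retinol as esters in stellate cells, read 3.23 and 1.78 FPKM fasted and 3.26 and 2.88 re-fed in controls, against 3.13 and 2.82 fasted and 1.62 and 1.84 re-fed in LMKO and gave -0.79 ± 0.28, or -0.48 without the fasted control 2. Summed over each list, Kupffer markers came to 159 and 203 FPKM in fasted and 130.4 and 183 in re-fed controls, and to 183 and 223 fasted and 84.3 and 118 re-fed in LMKO. The endothelial sums were 146 and 146, then 106 and 119, in controls and 198 and 178, then 116 and 81.4, in LMKO, and the stellate sums 169 and 142, then 120.4 and 159.9, against 160.0 and 175, then 96.4 and 118. All 3 lists were lowest in re-fed LMKO livers by their mean, although the endothelial sums of the re-fed groups overlapped.

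Other markers were checked in the same way. The 8 tested hepatocyte loci had a median interaction of -0.13 (-0.04 after median-ratio scaling and -0.33 after quantile normalization), and their list summed to between 20609.5 and 30418 FPKM. Pericentral and periportal hepatocyte markers had medians of -0.05 and 0.14, each of which lost its sign in some alternatives. Cyp2e1, a pericentral P450, fell by 1.49 in controls and 0.74 in LMKO, with 0.75 ± 0.22, while Cyp1a2, also pericentral, rose by 3.05 and 1.91, with -1.13 ± 0.34. None of the T and natural killer cell markers reached the level needed for the test, and their sum was at most 5.55 FPKM. Mpo among neutrophil markers, Slc4a1 among red cell markers and 7 of 9 pancreatic acinar markers stayed below 0.1 FPKM in all libraries. Cd74, carried by B cells and macrophages, read 31.8 and 20.8 FPKM fasted and 11.2 and 66.4 re-fed in controls, against 36.6 and 36.6 fasted and 18.2 and 28.1 re-fed in LMKO; its interaction of -0.77 ± 0.98 was -2.00 without the re-fed control 1 and 0.46 without the re-fed control 2. S100a8 and S100a9 of neutrophils, Hba-a1 and Hbb-b1 of red cells, Fabp4 of fat and Cela1 of pancreas all had an unadjusted limma p above 0.05. The 2 tested neutrophil loci had positive interactions, with a median of 0.72. Of 4 tested cholangiocyte markers 2 were positive and 2 negative, with a median of -0.02.

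Clock genes had the lowest median of all lists. Negative interactions made up 15 of 18 and the median of -0.67 ran from -0.85 without the re-fed control 2 to -0.24 without the re-fed control 1. The sources used here do not give the hour at which livers were taken. Cry2, a repressor of the clock, read 9.44 and 11.9 FPKM fasted and 11.8 and 9.62 re-fed in controls, against 13.2 and 15.7 fasted and 5.32 and 9.29 re-fed in LMKO; it fell in LMKO by 0.93, with an interaction of -0.94 ± 0.35, or -0.58 without the re-fed LMKO 1. Nr1d2, a nuclear receptor of the clock, read 23.6 and 24.2 FPKM fasted and 21.1 and 15.4 re-fed in controls, against 26.1 and 31.96 fasted and 9.05 and 15.6 re-fed in LMKO and gave -0.82 ± 0.36, or -0.46 without the re-fed LMKO 1. Hlf, an output factor, gave -0.69 ± 0.26. The re-fed LMKO 1 stood lowest of the re-fed livers in Cry2, Nr1d2 and Hlf. Dbp, named after its values were seen, was 6.598 and 53.2 FPKM in the 2 re-fed LMKO livers and 48.8 and 38.9 in the re-fed controls, so re-fed livers of 1 group differed by more than the groups.

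Of 20 genes of DNA replication and the cell cycle, 10 rose on re-feeding in controls and 3 in LMKO, and 17 of 20 interactions were negative, with a median of -0.31 that ran from -0.46 without the re-fed control 2 to -0.25 without the re-fed control 1 and was -0.50 with a pseudocount of 0.1. In 9 the LMKO responses lay wholly below those of controls. Mcm6, a subunit of the replicative helicase, read 0.696 and 0.131 FPKM fasted and 7.08 and 3.15 re-fed in controls, against 1.097 and 1.51 fasted and 1.91 and 2.81 re-fed in LMKO; it rose by 2.06 in controls, and the interaction was -1.53 ± 0.48, or -2.69 with a pseudocount of 0.1. Rrm2, which supplies deoxynucleotides, gave -1.33 ± 0.50, or -0.87 without the fasted LMKO 1. Cdk2 read 4.29 and 3.04 FPKM fasted and 4.22 and 3.65 re-fed in controls, against 5.84 and 5.598 fasted and 3.49 and 3.69 re-fed in LMKO, fell in LMKO by 0.55 and gave -0.64 ± 0.21. Ccnd3, a D-type cyclin, had the opposite sign, 0.68 ± 0.24. The highest estimate of the list was 2.78 and the lowest -1.53, so its widest estimate was positive. Stmn1, which destabilises microtubules and is high in dividing cells (chr4:134024235-134029758, mm9), read 1.65 and 2.15 FPKM in controls before and 6.92 and 6.79 after re-feeding, and 5.07 and 3.78 before and 3.02 and 4.49 after it in LMKO livers. Controls rose above every other group, LMKO livers started higher and did not move beyond their spread. The rise of 1.44 in controls passed, the LMKO response was -0.20, and the interaction was -1.64 ± 0.27 (limma adjusted p = 0.452).

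Interferon-stimulated genes gave 17 of 22 negative interactions and a median of -0.40, which was -0.07 without the fasted LMKO 2. Irf1 read 8.23 and 4.51 FPKM fasted and 11.3 and 18.9 re-fed in controls, against 12.1 and 13.5 fasted and 6.296 and 13.6 re-fed in LMKO and gave -1.55 ± 0.55; Igtp, a GTPase induced by interferon gamma, read 7.22 and 4.88 FPKM fasted and 18.2 and 34.7 re-fed in controls, against 5.54 and 12.7 fasted and 13.9 and 8.18 re-fed in LMKO and gave -1.61 ± 0.63. The re-fed control 2 stood highest in both. Bile acid genes had a median of -0.29 that ran from -0.35 without the fasted control 1 to -0.11 without the fasted LMKO 1, with 11 of 16 negative. Abcg5 and Abcg8 together export sterols into bile. Abcg5 read 31.6 and 34.8 FPKM fasted and 32.6 and 35.7 re-fed in controls, against 35.4 and 42.8 fasted and 24.9 and 20.8 re-fed in LMKO; it fell in LMKO by 0.75, with -0.79 ± 0.21. Abcg8 read 30.9 and 40.7 FPKM fasted and 15.6 and 18.6 re-fed in controls, against 40.9 and 43.1 fasted and 12.6 and 10.2 re-fed in LMKO; it fell by 1.01 and 1.80, with -0.78 ± 0.25. Drug-metabolising P450 genes had a median of -0.23 over 34, which was -0.11 with no filter on low values and -0.15 after median-ratio scaling. Cyp2c44 read 46.9998 and 27.1 FPKM fasted and 155 and 158 re-fed in controls. In LMKO it read 77.4 and 134 fasted and 133 and 138 re-fed. Cyp2c44 rose by 2.10 in controls and gave -1.69 ± 0.44. Some genes of the Cyp2c family are near-identical, and the split of reads among those is uncertain. Acute phase and coagulation genes had a median of -0.19 over 36, which was 0.01 without the fasted LMKO 2, -0.10 after median-ratio scaling and -0.35 after quantile normalization. Gclc, the catalytic subunit of glutathione synthesis, read 26.8 and 21.8 FPKM fasted and 50.8 and 60.5 re-fed in controls, against 60.1 and 56.8 fasted and 75.9 and 57.8 re-fed in LMKO; it rose by 1.16 in controls, with -0.99 ± 0.25.

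Major urinary proteins are pheromone carriers that the male liver secretes under growth hormone control. Many of their genes, though not all, are near-identical copies, so the split of reads among those is uncertain. Of 16 tested, 12 had a positive interaction, with a median of 0.42 that ran from 0.06 without the fasted control 2 to 0.83 without the fasted control 1. Mup7 (chr4:60079341-60083347, mm9) read 1878 and 2642 FPKM in controls before and 1600.1 and 1842 after re-feeding, and 5.13 and 5.596 before and 27.4 and 50.5 after it in LMKO livers. LMKO lay far below control in both states; every LMKO pair was higher re-fed and every control pair lower. The LMKO rise of 2.59 and both genotype gaps passed, the control response of -0.38 did not, and the interaction was 2.97 ± 0.41 (limma adjusted p = 0.356). Mup20, the pheromone darcin (chr4:61711269-61715151, mm9), read 2741 and 3400.0 FPKM fasted and 1641 and 1278 re-fed in controls, against 1101 and 534 fasted and 1819.9 and 1927 re-fed in LMKO. It fell by 1.08 in controls and rose by 1.29 in LMKO, so that the fasted LMKO livers lay below both controls and the re-fed ones above them; the interaction was 2.36 ± 0.46. Mup5 had the opposite sign, -1.32 ± 0.32: it read 2.31 and 3.14 FPKM fasted and 10.2 and 13.004 re-fed in controls, against 0.698 and 1.12 fasted and 2.07 and 1.14 re-fed in LMKO. Selenbp2, of a selenium-binding protein pair with near-identical sequence, read 139 and 34.5 FPKM fasted and 653 and 533 re-fed in controls, against 1.75 and 2.89 fasted and 117 and 96.4 re-fed in LMKO. It rose by 3.07 and 5.03, and its interaction of 1.97 ± 0.79 was 0.98 without the fasted control 1 and 2.96 without the fasted control 2.

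The 15 loci per direction with the smallest interaction p and a group mean of at least 5 FPKM did not pass the test. Their unadjusted limma p ran from 4.64e-05 to 0.00151 for the positive loci and reached up to 0.00217 for the negative ones, and the next in rank were Snhg1 at 0.00154 and Ptprf at 0.00229, so the boundary is arbitrary. All 30 had responses that did not overlap between genotypes, which their choice by p makes likely. None changed direction in any of the 21 alternative analyses, which is not separate support. Where responses do not overlap, leaving out a library cannot turn the sign. Changes to the fit alone leave the estimate as it is. In 12 of the 15 positive and 12 of the 15 negative loci the genotypes lay further apart in the fasted than in the re-fed state; over all loci this was so for 49.8%, and among those at an unadjusted p under 0.05 for 49.9% of the positive and 60.4% of the negative. Of the positive loci 10 fell and 1 rose in controls, while 3 fell and 7 rose in LMKO. Of the negative loci 13 rose in controls, and 2 rose and 3 fell in LMKO.

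**Figure D4:**
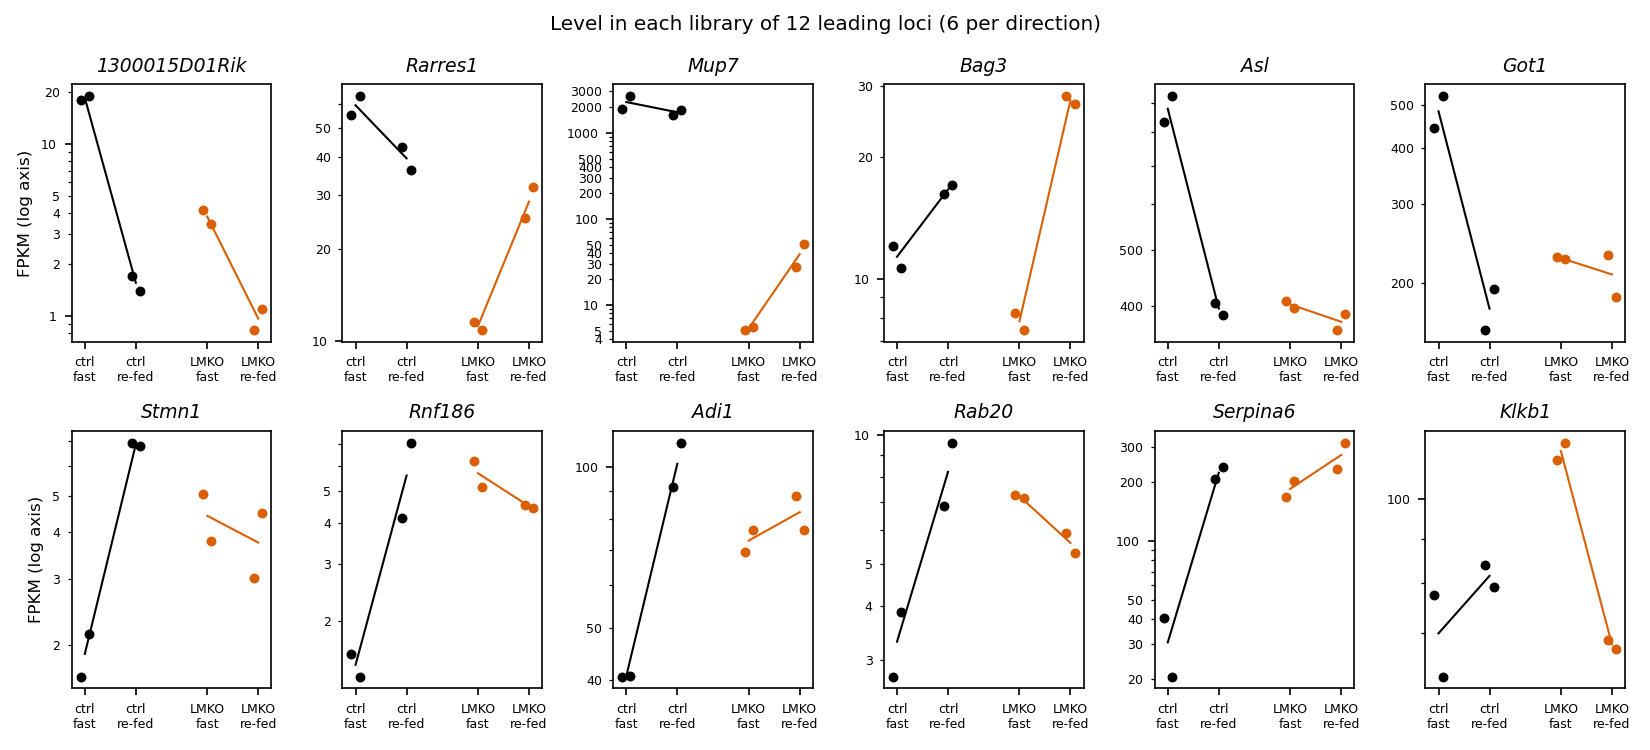
FPKM of every library (points, log axis) for 12 of the leading loci, 6 per direction, with lines joining the means of the fasted and re-fed groups of each genotype (black control, orange LMKO). In Asl, Got1 and Rarres1 the fasted LMKO livers stand lower than the fasted controls, and in Stmn1, Rnf186, Adi1, Rab20, Serpina6 and Klkb1 they stand higher.

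Among the positive loci outside the lists, Rarres1, a retinoic acid responsive gene (chr3:67282808-67319445, mm9), read 55.01 and 63.4 FPKM in controls before and 43.1 and 36.3 after re-feeding, and 11.6 and 10.9 before and 25.2 and 32.03 after it in LMKO livers. It fell by 0.57 in controls and rose by 1.27 in LMKO, and the fasted gap of -2.30 passed; the interaction was 1.84 ± 0.23 (limma adjusted p = 0.356). Nnmt, which methylates nicotinamide, read 131 and 174 FPKM fasted and 78.96 and 58.97 re-fed in controls, against 32.5 and 44.2 fasted and 86.9 and 226 re-fed in LMKO. Fasted LMKO livers lay below all others, the re-fed LMKO livers differed widely from each other, and the interaction was 2.99 ± 0.60. Wipi1, which marks forming autophagosomes, read 14.9 and 16.8 FPKM fasted and 4.81 and 4.82 re-fed in controls, against 6.88 and 6.34 fasted and 3.5999 and 4.31 re-fed in LMKO. It fell by 1.53 and 0.62, the fasted gap passed, and the interaction was 0.91 ± 0.18. Lad1, an anchoring filament protein, rose in LMKO by 2.41 to 8.45 and 14.5 FPKM, above all other livers, with 2.13 ± 0.40. Def8 gave 1.18 ± 0.24, Wdr92 2.56 ± 0.52 and the transcript 2410006H16Rik 0.99 ± 0.18.

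Among the negative loci, Cyp26a1, which degrades retinoic acid (chr19:37772298-37776026, mm9), read 4.17 and 1.12 FPKM fasted and 84.6 and 68.4 re-fed in controls, against 3.24 and 5.598 fasted and 18.1 and 19.6 re-fed in LMKO. It rose by 4.54 and 1.91, and re-fed controls stood above re-fed LMKO livers; the interaction of -2.63 ± 0.57 ran from -3.28 to -1.99 over the alternatives. Adh4, an alcohol dehydrogenase that also oxidises retinol, read 39.8 and 25.9 FPKM fasted and 99.7 and 93.8 re-fed in controls, against 48.3 and 50.95 fasted and 60.7 and 57.4 re-fed in LMKO. It rose by 1.56 in controls, with -1.32 ± 0.27. Serpina6, the corticosteroid-binding globulin of plasma (chr12:104884842-104895281, mm9), read 40.7 and 20.5 FPKM in controls and 167 and 201 in LMKO livers after the fast, and 206 and 238 in controls and 231 and 315 in LMKO livers after re-feeding. Fasted controls alone stood low; the rise of 2.89 in controls and the fasted gap of 2.62 passed, and the interaction was -2.34 ± 0.44.

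Rnf186, a ubiquitin ligase (chr4:138523027-138524281, mm9), read 1.58 and 1.35 FPKM fasted and 4.13 and 7.06 re-fed in controls, against 6.197 and 5.17 fasted and 4.55 and 4.46 re-fed in LMKO. Fasted controls stood below all other livers; it rose by 1.38 in controls, with -1.66 ± 0.30. Adi1, of the methionine salvage pathway, read 40.5 and 40.7 FPKM fasted and 91.6 and 111 re-fed in controls, against 69.3 and 76.2 fasted and 88.2 and 76.3 re-fed in LMKO and gave -1.12 ± 0.20. Rab20, a vesicle GTPase, read 2.74 and 3.87 FPKM fasted and 6.82 and 9.61 re-fed in controls, against 7.27 and 7.15 fasted and 5.92 and 5.31 re-fed in LMKO and gave -1.41 ± 0.26. In both genes fasted controls were lowest and re-fed controls had the highest liver. Klkb1, plasma prekallikrein, fell in LMKO by 0.73, from 111 and 116 to 68.8 and 67.1 FPKM, beside 77.6 and 62.4 and then 83.9 and 79.1 in controls, with -0.96 ± 0.19. Enpp1, which makes pyrophosphate outside the cell, fell in LMKO by 1.05 and gave -0.78 ± 0.16. The others were Actn1 at -1.11 ± 0.23, Acsm5 at -1.01 ± 0.21, Bcar3 at -0.90 ± 0.19 and Rnf19b at -0.83 ± 0.17; each rose in controls, and Actn1 also fell in LMKO.

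The 18 readouts of insulin and FOXO1 split 9 to 9, with 11 falls in each genotype. Igfbp1 read 216 and 624 FPKM fasted and 0.991 and 1.65 re-fed in controls, against 71.5 and 22.4 fasted and 1.25 and 0.471 re-fed in LMKO; it fell by 7.33 and 4.50, and its interaction was 2.83 ± 0.89. Bcl6, a transcriptional repressor, read 2.79 and 1.98 FPKM fasted and 17.4 and 17.8 re-fed in controls, against 26.3 and 4.21 fasted and 3.03 and 16.1 re-fed in LMKO, with 1 liver of each LMKO group apart, and gave -2.99 ± 1.20, which was -1.80 without the fasted LMKO 1 and -1.95 without the re-fed LMKO 1. Glycolytic genes had 12 of 16 positive interactions and a median of 0.26 that ran from 0.09 without the re-fed control 2 to 0.45 without the re-fed control 1. The median of glycogen genes, -0.07, was 0.07 without the re-fed control 1 and also lost its sign after median-ratio scaling. Apolipoproteins and aminoacyl-tRNA synthetases, with 0.01 and 0.00, lost their sign in several alternatives. Apoc3, which slows clearance of triglyceride-rich particles, rose in LMKO by 1.09 and gave 0.77 ± 0.21, which was 0.34 after quantile normalization. Ppp1r3c, a glycogen-targeting subunit, read 3.25 and 3.85 FPKM fasted and 16.5 and 40.8 re-fed in controls, against 26.9 and 10.98 fasted and 41.5 and 41.02 re-fed in LMKO and gave -1.36 ± 0.67, which was -0.75 without the fasted LMKO 1 and -0.73 without the re-fed control 2. Of 30 autophagy and lysosome genes 13 were positive and 17 negative.

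**Figure D5:**
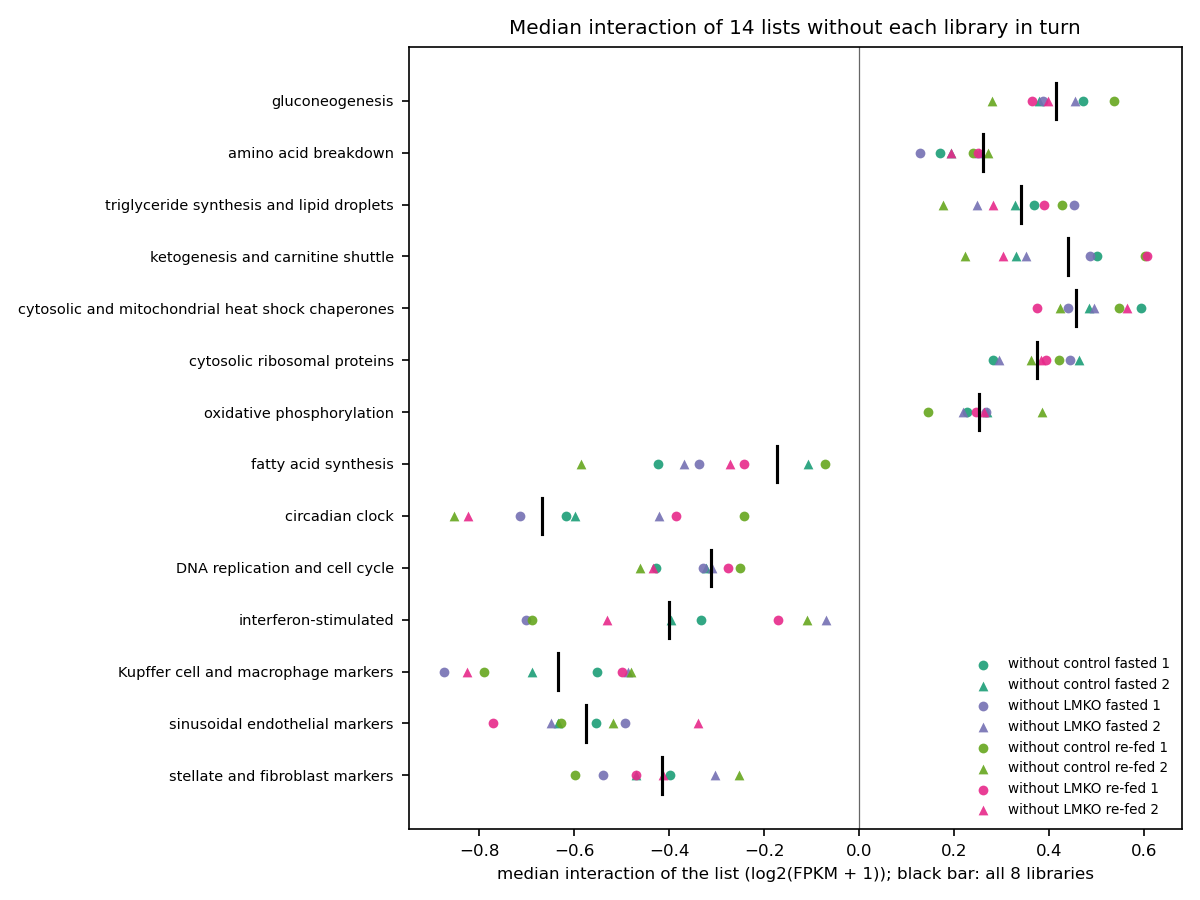
Median interaction (log2(FPKM + 1)) of 14 lists with all 8 libraries (black bars) and with each library left out in turn (symbols; colour gives the group and shape the replicate). These lists were chosen for display, and all 14 medians stayed on their side of 0. The circadian list moved nearest to it without the re-fed control 1 (-0.24), and the interferon list without the fasted LMKO 2 (-0.07). Several lists not shown changed sign with a library left out. Among them were cholesterol synthesis and uptake (-0.42 without the fasted control 1) and the proteasome (-0.05 without the fasted LMKO 2).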

How the data were processed

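Gene expression was measured by RNA-seq of polyadenylated liver RNA from 8 mice, 2 in each of 4 groups set by genotype and feeding state as the labels give them. The deposited values are FPKM per locus, computed by the authors; per the submitters' processing notes the tools were TopHat 1.4.1, SAMtools 1.4.1, Cufflinks 2.0.2 and Cuffdiff 2.0.2, with the mouse build mm9. FPKM divides by transcript length and by mapped fragments, so read depth and counting error are unknown. Starts are printed 1 higher than deposited, since the span then equals the RefSeq gene length for 8691 of 20480 symbols, against 528 otherwise.

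Here, limma 3.58.1 in R 4.3.3 was fitted to log2(FPKM + 1), a scale that understates changes of low loci, with 4 group means, empirical Bayes with a mean-variance trend, and 4 residual degrees of freedom. Loci of at least 200 bases entered if 2 or more libraries reached 1 FPKM, and p-values were two-sided, adjusted by Benjamini-Hochberg over all loci of a contrast and called under 0.05. Simulated data were used to check the fit. The interaction, the averaged re-feeding response and the 4 simple contrasts share 1 fit, and the simple contrasts share libraries with each other. The members and gene lists were chosen with earlier results of these data known, so lists are described by counts and medians, with no test. Named loci are Med23, Pck1, G6pc and Ppargc1a, the 15 per direction with the smallest interaction p and a highest group mean of at least 5 FPKM, and up to 4 members per list with the smallest p and a highest group mean of at least 1 FPKM; Fasn, Dbp, Ctcfl and the hepatocyte genes Apoa1 and Ttr were added after their values were seen. The 21 alternatives varied the pseudocount, the filters, the scaling, the fit, the block and the library left out. Promoter sequences and later gene names came from RefSeq. Transcript lengths are the median over a gene's transcripts in the GENCODE mouse annotation, found for 10668 of the 10782 loci. Some loci that meet the naming rule are not reported here.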

Additional observations from a re-analysis of the deposited data

Results flagged for a closer look

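In 13 of the 30 leading loci every re-fed minus fasted pair of one genotype had the opposite sign to every pair of the other. The difference passed no test in these loci, since no interaction was called by limma with Benjamini-Hochberg adjustment. The same arrangement was present at 292 of all 10782 loci (2.71%), and choosing loci by the interaction makes it more frequent.

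In 6 of them LMKO livers were higher re-fed and controls lower. The interactions on the log2(FPKM + 1) scale were 2.99 for Nnmt, 2.97 for Mup7, 2.36 for Mup20, 1.84 for Rarres1, 1.18 for Def8 and 1.11 for Hilpda. In the other 7 the order was the reverse, with -1.66 for Rnf186, -1.41 for Rab20, -1.11 for Actn1, -1.01 for Acsm5, -0.96 for Klkb1, -0.90 for Bcar3 and -0.83 for Rnf19b. Both responses passed, in opposite directions, in Rarres1, Mup20 and Actn1.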

How the results depend on the processing

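The genotype by re-feeding interaction called 0 loci in all alternatives but a pair. With loci of all lengths it called 4 (Mir215 and Mir5123 higher, Mir1898 and Snord23 lower), each under 200 bases. With each library left out it called 0 to 11, and all 11 came without the fasted control 1: Ren1, Ddit4, Hist1h1c, Ppp1r3g, Gm15441, Plin2, Jun, Slc25a22 and Tat higher, Akr1c6 and Abhd1 lower. That left 1 fasted control, assumed to vary like the other groups. For re-feeding averaged over both genotypes, 4885 to 5477 loci were called with each library left out, beside 5814. Replicate numbers did not pair the libraries: the correlations of same-numbered deviations ran from -0.196 to 0.0401, and the fit with the number as a block called 0 loci, with 888 at an unadjusted p under 0.05.

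Of 192 named loci, 181 kept the sign of the interaction in all alternatives run. With each library left out, the other loci ran from -0.30 to 1.53 for G6pc, -2.13 to 0.063 for Stard4, -0.000217 to 0.40 for Farsb, -0.80 to 0.040 for Apob, -0.55 to 1.81 for Krt23, -0.61 to 0.24 for Spp1, -0.45 to 0.72 for Krt19, -2.00 to 0.46 for Cd74, -0.051 to 0.82 for Fabp4 and -0.64 to 0.19 for Cela1. The sign turned without the fasted control 2 in Stard4, Farsb, Krt23, Spp1, Krt19 and Fabp4, without the re-fed control 1 in Apob and Krt19, without the re-fed control 2 in Cd74 and Cela1, without the re-fed LMKO 1 in G6pc and Krt19, and without the fasted or the re-fed LMKO 2 in Cela1. Krt23 gave -0.094 with a pseudocount of 0.1, and Cps1 -0.26 after quantile normalization. The cause was not tested. Depth is unknown, so counting error cannot be separated from the spread between livers.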
